A study of Mus musculus with 9 samples.

Results

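The genes described here encode the MHC class I presentation route, taken by name from the deposited expression table. They are the heavy chains H2-K1 and H2-D1, their light chain B2m, the transporter and loading genes Tap1, Tap2 and Tapbp, the immunoproteasome subunits Psmb8, Psmb9 and Psmb10, and the transactivator Nlrc5. All 10 were found among the 43629 Ensembl genes of the table, and all 10 passed the filter on low values. Bone marrow cells selected for c-KIT (CD117), the stem cell factor receptor of blood progenitors, were profiled by RNA-seq in 9 libraries. The first group, called Chd7f/f KI here, carried 2 floxed Chd7 alleles, Mx1-Cre and Cbfb+/56M. The second, called KI, carried Mx1-Cre and Cbfb+/56M with Chd7 not floxed. The third was labelled WT, and each group had 3 libraries.

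Cbfb+/56M is a conditional knock-in of CBFB-MYH11, the fusion gene of a human acute myeloid leukaemia, and Chd7 encodes a chromatin remodelling ATPase. The strain of all mice was labelled C57BL/6, and all had been treated with pIpC, an RNA mimic of viral infection that makes tissues release interferon. The Mx1 promoter that drives Cre responds to interferon, in the marrow and in other tissues. The mice's age and the interval between pIpC and harvest are not given in the sources used here. Whether each library stands for its own mouse is not stated in the labels. The p-values therefore measure the spread between these libraries, which may be technical.

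Class I molecules show peptides from the cell's own proteins to CD8 T cells. The proteasome cuts the proteins, the TAP transporter carries peptides into the endoplasmic reticulum, and tapasin helps load them onto a heavy chain paired with beta-2 microglobulin. Interferons raise the whole route and swap the catalytic subunits of the proteasome for those of the immunoproteasome. NLRC5 is the main transactivator of class I genes and acts through a promoter module of S, X and Y boxes.

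The promoters of H2-K1, which passed the test against WT below, and of B2m, which did not, are shown because both hold the X2 and Y letters of this module. Sequences are those of RefSeq on GRCm38.p6, which had a window for 8 of the 10 genes. In the H2-K1 promoter (chr17:34000349-34000548, minus strand) the capitals mark, in order, a kappa B match, an interferon regulatory factor match, and the X2 and Y matches. In the B2m promoter (chr2:122147486-122147685, plus strand) they mark an interferon regulatory factor match and again X2 and Y.
H2-K1 promoter: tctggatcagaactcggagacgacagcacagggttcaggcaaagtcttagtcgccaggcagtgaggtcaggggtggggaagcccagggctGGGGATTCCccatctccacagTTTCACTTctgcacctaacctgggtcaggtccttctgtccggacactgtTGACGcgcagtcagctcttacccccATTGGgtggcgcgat
B2m promoter: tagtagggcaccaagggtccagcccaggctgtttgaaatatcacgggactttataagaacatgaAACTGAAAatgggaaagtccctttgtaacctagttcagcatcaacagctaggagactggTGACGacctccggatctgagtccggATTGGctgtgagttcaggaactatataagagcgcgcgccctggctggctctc

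The stretch from X2 to Y is set out for the 3 genes that hold both 10 to 30 bases apart, to show how far their letters agree between the boxes.
H2-K1 X2 to Y: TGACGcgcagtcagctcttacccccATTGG
H2-D1 X2 to Y: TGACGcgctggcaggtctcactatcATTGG
B2m X2 to Y: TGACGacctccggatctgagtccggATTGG

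These lie at chr17:34000359-34000388 (minus strand), chr17:35262993-35263022 (plus strand) and chr2:122147609-122147638 (plus strand). Each is 30 bases long. Over all 30 bases, H2-K1 and H2-D1 had 23 in common, and H2-K1 and B2m had 13. These counts include the TGACG and ATTGG letters, which the search required to match, so they overstate agreement between the boxes. The search covered both strands of the 250 bases before each annotated start. A pair of TGACG and ATTGG (10 to 30 bases between them) was in the windows of H2-K1, H2-D1 and B2m, and in 0.642% of 32851 promoter windows of all genes. Tap1 and Psmb9 also held both sets of letters, farther apart than this. Their windows overlap, and these are the same bases read on opposite strands. The kappa B letters GGGNNTTCC occurred in H2-K1 and H2-D1 (4.98% of all windows). The letters AANNGAAA, the core bound by interferon regulatory factors, occurred in H2-K1, H2-D1 and B2m (21.3%). TTCNNNGAA, the gamma-activated form, was found in Psmb8 (7.02%). Within any single window of the 8 genes searched, none of these matches overlapped another. The letters were chosen with the sequences known, and a match is a description of the window, not a shown binding site. Tap1 and Psmb9 start back to back with 225 bases between their RefSeq starts.

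As read from the low values, the authors divided reads per gene by a factor for each library and rounded them, and the results are named normalised values below. They summed to between 37.5 and 46.2 M per library. Of all genes, 15997 reached a value of 10 in at least 3 libraries and were tested with limma on log2(value + 1). Fold changes are on this scale, and calls are at a Benjamini-Hochberg adjusted p of 0.05 over all tested genes. Chd7 had 1862, 1794 and 1921 in Chd7f/f KI, 1979, 2934 and 2009 in KI, and 3471, 3745 and 3982 in WT. The loss of a floxed exon need not show in a sum over all exons, and the difference of -0.29 between Chd7f/f KI and KI did not pass (SE 0.14, limma adjusted p = 0.121). Myh11 averaged 176 ± 11.5, 196 ± 21.6 and 7.33 ± 2.08 (SD, n = 3) in Chd7f/f KI, KI and WT.

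The cell markers of the groups differed widely, and in bulk RNA fewer cells of a type cannot be told apart from less RNA per cell. Of 14 late neutrophil markers, 14 were lower in KI than in WT, and the list took 3.83% to 4.99% of the total in Chd7f/f KI, 0.783% to 2.39% in KI and 10.9% to 12.8% in WT. Of 12 monocyte and macrophage markers 10 were higher in KI than in WT and 2 lower. Of 10 dendritic cell and class II markers 8 were higher and none lower. Of all tested genes, 31.8% were higher and 27.2% lower in KI than in WT. Between Chd7f/f KI and KI, 13 of the 14 late neutrophil markers were higher in Chd7f/f KI and none lower. In that comparison 10 of the 12 monocyte and macrophage markers were lower and 1 higher. Of the 10 dendritic cell and class II markers, 5 were lower and 2 higher there. The shares of all tested genes were 22.9% lower and 17.5% higher. The summed values of the 10 T and NK cell markers were 4684 to 6855 in Chd7f/f KI, 2611 to 4905 in KI and 9162 to 9878 in WT. Nkg7 made up most of that sum in every library, with means of 4784, 2076 and 8129 in these groups. Of the 10 markers, 1 was higher and 3 lower in KI than in WT (31.8% and 27.2% of all tested genes). Their median log2 fold change was 0.27. The summed values of the 9 B cell markers were 10896 to 23032, 6660 to 10758 and 6718 to 8018, in the same order of groups. No marker of these lists was at 0 in all libraries. The part of these differences in the results below was not tested.

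**Figure D1:**
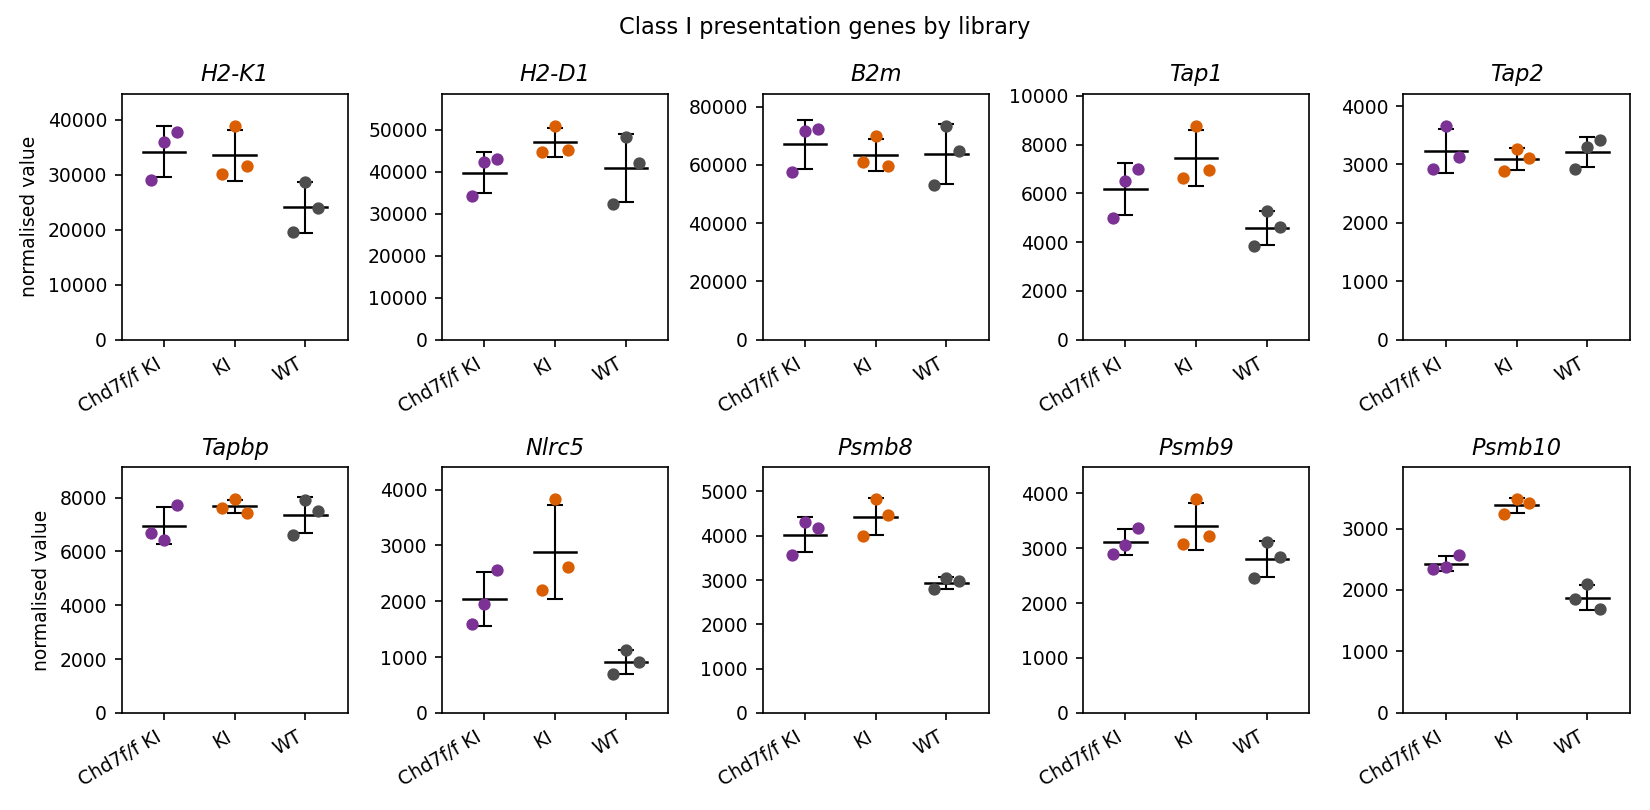
Normalised value for each class I presentation gene, on axes that start at 0. Points are the 3 libraries of Chd7f/f KI, KI and WT, in library order, lines are group means and bars are SD. Nlrc5, Psmb8, Psmb10, Tap1 and H2-K1 have their KI libraries above all WT libraries, while B2m, Tap2 and Tapbp overlap across the groups.

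Per kilobase of exon, the light chain was the most abundant transcript of the route and Nlrc5 the least. B2m (chromosome 2, 122147686 to 122153083, GRCm38) averaged 78010 normalised units per kilobase in Chd7f/f KI, 73804 in KI and 74115 in WT. H2-K1 averaged 20662, 20243 and 14523 per kilobase in these groups, and H2-D1 18931, 22347 and 19426. The transporter, tapasin and immunoproteasome genes lay between 840 and 2966 per kilobase in single libraries. Nlrc5 ranged from 85.1 to 471 per kilobase. B2m was thus above each heavy chain in all 9 libraries, and the 2 heavy chains overlapped in range, from 11797 to 23465 and from 15319 to 24211 per kilobase.

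The first comparison set the fusion allele, with Mx1-Cre, against WT. The transactivator Nlrc5, 2 of the 3 immunoproteasome subunits, Tap1 and the heavy chain H2-K1 rose in KI, whereas B2m, H2-D1, Tap2, Tapbp and Psmb9 did not pass the test. Nlrc5 had the largest rise of the 10 genes, 3.15-fold, and H2-K1 the smallest that passed, 1.40-fold. In all, 5 of 10 genes were higher and none lower by limma (6 and 0 at an unadjusted p under 0.05). Of all tested genes, 58.9% were called, 31.8% higher and 27.2% lower. The libraries of KI and WT did not overlap for the same 5 genes, as for 35.9% of all tested genes on the high side. The median log2 fold change of the 10 was 0.38, against 0.02 over all tested genes. The WT label names no Cre, so the fusion and Cre cannot be told apart in this comparison.

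Nlrc5 (ENSMUSG00000074151, chromosome 8, 94434356 to 94527272), which drives class I promoters, had values of 2208, 3825 and 2616 in KI, against 691, 1119 and 913 in WT. The lowest KI library was above the highest WT library. The log2 fold change was 1.65 (SE 0.25, limma adjusted p = 0.000351). It stayed between 1.43 and 1.83 when any 1 library was left out.

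Among the immunoproteasome subunits, Psmb10 moved most. Psmb10 (chromosome 8, 105935735 to 105938444) encodes the subunit with trypsin-like activity and had 3239, 3477 and 3423 in KI, against 1849, 2095 and 1684 in WT. These groups were far apart, with a log2 fold change of 0.85 (SE 0.08, limma adjusted p = 1.96e-05). Psmb8 (chromosome 17, 34197721 to 34201454), the chymotrypsin-like subunit, had 3995, 4823 and 4462 in KI, against 2793, 3051 and 2970 in WT. The groups did not overlap, and Psmb8 was higher by 0.59 on the log2 scale (SE 0.09, limma adjusted p = 0.000371). Psmb9 (chromosome 17, 34181987 to 34187764), which replaces the caspase-like subunit, had 3084, 3894 and 3218 in KI, against 2466, 3115 and 2848 in WT. The lowest KI library was below the highest WT library, and the difference of 0.27 did not pass (SE 0.11, limma adjusted p = 0.0576). Psmb9 passed under several other settings, among them values scaled to the column total with and without the late neutrophil genes (0.50 and 0.34, limma adjusted p = 0.00237 and 0.0245) and quantile normalisation (0.28, adjusted p = 0.0387). It also passed without KI library 1 or WT library 2 (adjusted p = 0.0435 and 0.0342).

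The 2 chains of the peptide transporter differed in outcome, though the difference between them was not tested. Tap1 (chromosome 17, 34187553 to 34197225) had 6641, 8758 and 6942 in KI, against 3851, 5268 and 4629 in WT. KI lay above WT throughout, by 0.70 on the log2 scale (SE 0.16, limma adjusted p = 0.00431). Tap2 (chromosome 17, 34203527 to 34216321), its partner, had 2891, 3262 and 3117 in KI, against 2918, 3295 and 3427 in WT. These ranges overlapped, and the difference was -0.05 with a 95% interval of -0.27 to 0.16 (limma adjusted p = 0.633). Tapbp (chromosome 17, 33915899 to 33929292), the gene of tapasin, had 7631, 7937 and 7440 in KI, against 6597, 7923 and 7519 in WT, and differed by 0.07 (interval -0.13 to 0.26, limma adjusted p = 0.531). Scaled to the column total, Tapbp passed (0.30, adjusted p = 0.00972). In the annotation the first exons of Tap1 and Psmb9 overlap on opposite strands, and strand use in the counting is not given in the sources used here.

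Of the heavy and light chains, only H2-K1 passed. H2-K1 (chromosome 17, 33996017 to 34000347) had 30106, 38834 and 31565 in KI, against 19524, 28711 and 23871 in WT. The closest libraries, 30106 in KI and 28711 in WT, were near each other, and the log2 fold change was 0.49 (SE 0.16, limma adjusted p = 0.025). The H2-K1 call was lost without KI library 2, without WT library 1 or without WT library 3 (adjusted p = 0.0839, 0.0866 and 0.0591). H2-D1 (chromosome 17, 35262730 to 35267499) had 44819, 50891 and 45211 in KI, against 32201, 48177 and 42120 in WT. The groups overlapped, and the difference was 0.22 (interval -0.12 to 0.55, limma adjusted p = 0.23). H2-D1 passed when scaled to the column total (0.45, adjusted p = 0.0173) and with quantile normalisation (0.43, adjusted p = 0.0371). B2m had 61016, 69767 and 59632 in KI, against 53046, 73340 and 64830 in WT. KI lay within the WT range for B2m, at a difference of 0.00 with an interval of -0.31 to 0.31 (limma adjusted p = 0.986). H2-K1 and H2-D1 have close relatives in the same locus, and the authors' counting could divide reads between them.

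**Figure D2:**
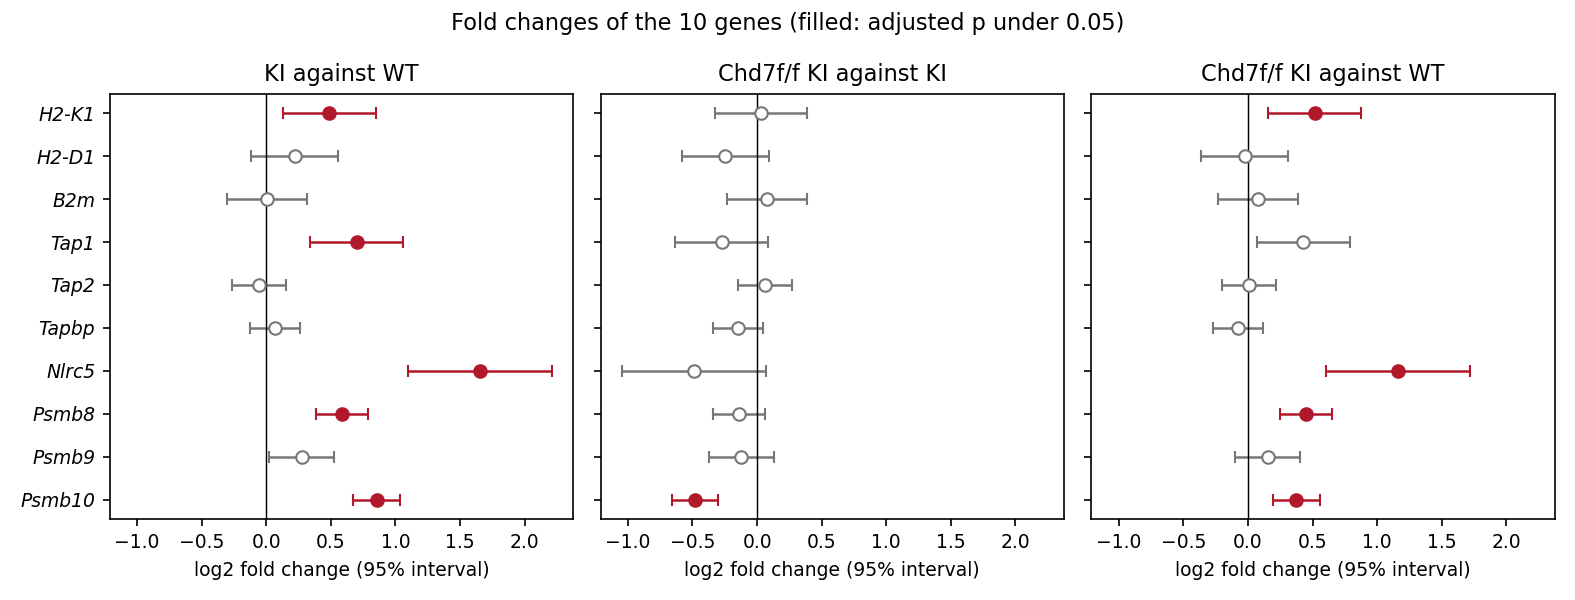
Log2 fold change of each gene with its 95% interval from limma, for KI against WT, Chd7f/f KI against KI, and Chd7f/f KI against WT. Filled red points passed an adjusted p of 0.05. In KI against WT 5 genes passed on the high side, in Chd7f/f KI against KI Psmb10 alone passed, on the low side, and in Chd7f/f KI against WT 4 passed on the high side.

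The second comparison asked what the floxed Chd7 alleles changed on the fusion background. Psmb10 fell to 0.718 of its KI level, and it alone of the 10 genes passed the test. None was called higher and 1 lower by limma (0 and 1 at an unadjusted p under 0.05), where 40.4% of all tested genes were called, 17.5% higher and 22.9% lower. The median log2 fold change of the 10 was -0.14, beside -0.01 over all tested genes. Psmb10 had 2335, 2377 and 2566 in Chd7f/f KI, against 3239, 3477 and 3423 in KI. No Chd7f/f KI library came near a KI library for Psmb10, at a log2 fold change of -0.48 (SE 0.08, limma adjusted p = 0.00189). It ranged from -0.52 to -0.45 with 1 library left out.

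Nlrc5 had 1596, 1951 and 2553 in Chd7f/f KI, against 2208, 3825 and 2616 in KI. The ranges overlapped between 2208 and 2553, and the difference of -0.49 did not pass (SE 0.25, interval -1.05 to 0.07, limma adjusted p = 0.141). Tap1 had 4993, 6523 and 7016 in Chd7f/f KI, against 6641, 8758 and 6942 in KI, a difference of -0.27 (SE 0.16, limma adjusted p = 0.2). Psmb8 had 3574, 4312 and 4181 in Chd7f/f KI, against 3995, 4823 and 4462 in KI, and differed by -0.14 (interval -0.34 to 0.06, limma adjusted p = 0.238). All 3 ranges overlapped between these groups.

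H2-K1 had 28954, 35845 and 37790 in Chd7f/f KI, against 30106, 38834 and 31565 in KI, a difference of 0.03 (interval -0.33 to 0.39, limma adjusted p = 0.896). H2-D1 had 34184, 42232 and 42960 in Chd7f/f KI, all below the 44819, 50891 and 45211 of KI. That difference of -0.24 did not pass although the libraries did not overlap (interval -0.58 to 0.09, limma adjusted p = 0.216). Such separation on the low side was seen in 28.2% of all tested genes. B2m had 57450, 71579 and 72237 in Chd7f/f KI, against 61016, 69767 and 59632 in KI, a difference of 0.08 (interval -0.23 to 0.39). Tap2, Tapbp and Psmb9 differed by 0.06, -0.15 and -0.12, with adjusted p of 0.614, 0.202 and 0.404 from limma. Intervals of this width leave room for differences of the size seen for Psmb10 in Nlrc5, Tap1 and H2-D1.

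Against WT, 4 of the 10 genes were higher in Chd7f/f KI and none lower by limma (5 and 0 at an unadjusted p under 0.05). Of all tested genes 48.4% were called, 24% higher and 24.3% lower. The same 4 genes had no overlap between the groups on the high side (28.9% of all tested genes) and none had on the low side (28.8%). The median log2 fold change was 0.26, and 0.02 over all tested genes. This comparison shares its libraries with the other 2 and is not independent of them. Nlrc5 was higher by 1.16 (SE 0.25, limma adjusted p = 0.00411), Psmb8 by 0.45 (SE 0.09, adjusted p = 0.0028) and Psmb10 by 0.38 (SE 0.08, adjusted p = 0.00412). The lowest Chd7f/f KI library of each was above the highest WT library. H2-K1 was higher by 0.52 (SE 0.16, limma adjusted p = 0.0239). Its call was lost without Chd7f/f KI library 2 or 3, or WT library 1 or 3 (adjusted p = 0.0602 to 0.0781). Tap1 differed by 0.43 and missed the threshold narrowly (limma adjusted p = 0.0516). It passed under several other settings, among them values scaled to the column total (0.67, adjusted p = 0.00496), quantile normalisation (0.55, adjusted p = 0.017) and a fit without Chd7f/f KI library 1 (0.57, adjusted p = 0.0143). B2m, H2-D1, Tap2, Tapbp and Psmb9 differed by -0.08 to 0.15, and none passed. Column-total scaling added Tap2 (0.26, adjusted p = 0.0333) and Psmb9 (0.40, adjusted p = 0.0103).

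The 10 genes also varied together within groups. KI library 2 was the highest of its group for 10 of 10 genes. WT library 1 was the lowest of its group for 9, all but Psmb10, and Chd7f/f KI library 1 the lowest of its group for 9, all but Tapbp. Over all tested genes these libraries held those places in 36.6%, 36.4% and 36.7%. The libraries were singled out after the values were seen, so the counts are a description. Nlrc5 spanned the widest range, with a centred log2 level of -1.30 in WT library 1 and 1.16 in KI library 2. KI library 2 also had the highest sums of its group for the late neutrophil list (915308, against 295467 and 555577) and the T and NK cell list (4905, against 2611 and 2669) and the B cell list (10758, against 6660 and 9187). WT library 1 had the lowest dendritic and class II sum of its group (18020, against 31258 and 27498). It also had the lowest sums for the monocyte list (294266, against 407123 and 389732) and the late neutrophil list (4701354, against 5847557 and 5915571). Lyz2 made up most of the monocyte sum (257979, against 369801 and 350215). In that list Csf1r, Mpeg1, Cx3cr1, Fcgr1, Adgre1 and Ctss were also lowest in WT library 1. Ccr2 (2872, against 2143 and 2356), F13a1, Ly86 and Ms4a6c were highest there. Chd7f/f KI library 1 had the lowest dendritic and class II sum of its group (39847, against 66902 and 62650). Its late neutrophil sum (1900884, against 1458826 and 1454750) and monocyte sum (292604, against 239000 and 233339) were the highest of its group. KI library 2 had the lowest dendritic and class II sum of its group (110453, against 128832 and 117104). The part of these lists was not tested.

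**Figure D3:**
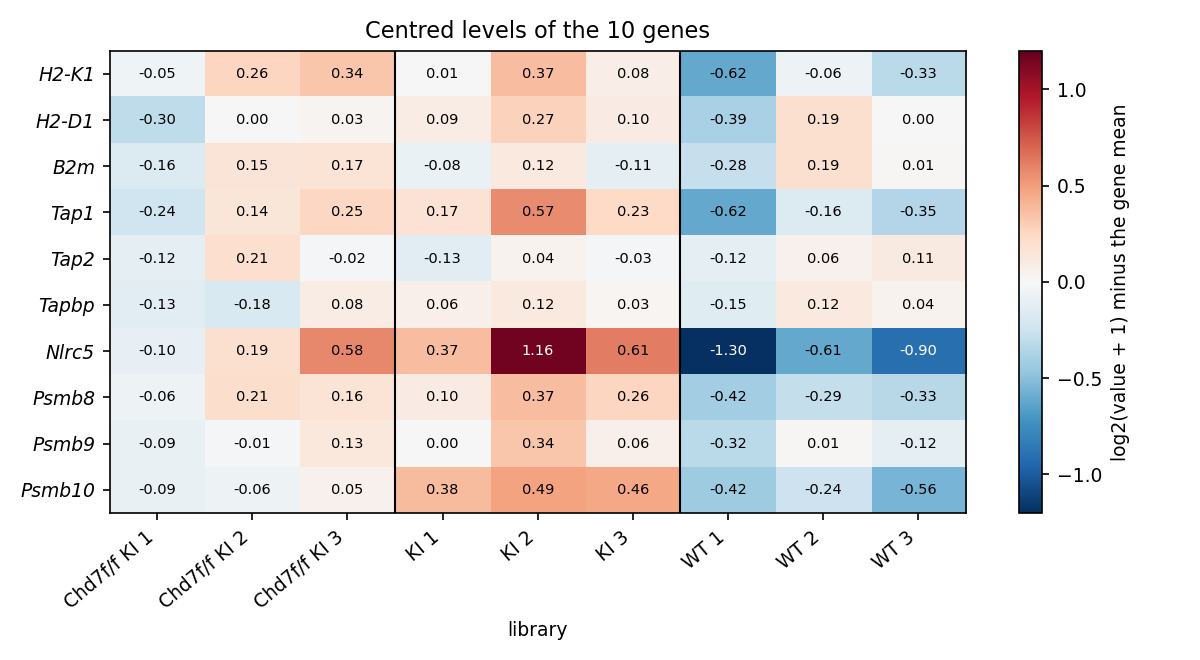
Log2(value + 1) of each gene minus its mean over the 9 libraries, printed in each cell and coloured from blue (low) to red (high), with libraries of Chd7f/f KI, KI and WT from left to right. Nlrc5 runs from -1.30 in WT library 1 to 1.16 in KI library 2, and the rows of Tap2 and Tapbp stay near 0.

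Immunoproteasome subunits take the place of Psmb5, Psmb6 and Psmb7 in newly made proteasomes, so each was set against its constitutive counterpart within a library. Such ratios do not depend on the scaling of a library. The Psmb8 to Psmb5 ratio of normalised values was 2.26, 2.16 and 2.05 in Chd7f/f KI, 1.97, 2.47 and 2.36 in KI, and 1.18, 1.27 and 1.26 in WT. Every library with the fusion allele was above every WT library, by 0.87 on the log2 scale in KI and by 0.80 in Chd7f/f KI. The Psmb10 to Psmb7 ratio was 0.502, 0.475 and 0.513 in Chd7f/f KI, 0.645, 0.717 and 0.701 in KI, and 0.281, 0.326 and 0.26 in WT. Here the groups formed 3 separate steps, with Chd7f/f KI between the others. KI was above WT by 1.25 and Chd7f/f KI below KI by 0.47 (a log2 difference of -0.47).

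The Psmb9 to Psmb6 ratio was 0.733, 0.72 and 0.82 in Chd7f/f KI, 0.694, 0.923 and 0.76 in KI, and 0.545, 0.679 and 0.631 in WT. Chd7f/f KI and KI overlapped for Psmb9 to Psmb6, and both lay above WT, by 0.30 and 0.35 on the log2 scale. Of 9 differences tested, 7 separated the groups fully, each with p = 0.1 in the 2-sided exact permutation test and 0.129 after adjustment over the 9. With 3 libraries against 3 the exact permutation test cannot go below p = 0.1, so none could pass. The other 2 were Chd7f/f KI against KI for Psmb8 to Psmb5 (-0.07, exact p = 0.6) and Psmb9 to Psmb6 (-0.06, exact p = 0.8). Full separation was also common among single tested genes, at 35.9% on the high and 31.8% on the low side in KI against WT. These shares were 23.8% and 28.2% in Chd7f/f KI against KI, and 28.9% and 28.8% in Chd7f/f KI against WT.

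The constitutive side was read from the fit across genes. In KI against WT, Psmb7 fell by 0.40 and Psmb5 by 0.28 (limma adjusted p = 5.83e-05 and 0.0222), while Psmb6 differed by -0.08 (adjusted p = 0.155). Scaled to the column total, Psmb7 was still lower (-0.17, adjusted p = 0.0192), Psmb5 no longer passed (-0.05, adjusted p = 0.657) and Psmb6 was higher (0.15, adjusted p = 0.0233). Of the 14 constitutive 20S core genes, 7 fell in KI and 2 rose (27.2% and 31.8% of all tested genes), with a median of -0.13. Column-total scaling gave a median of 0.10 with 6 higher and 4 lower. Among the 7 that fell as reported, the smallest adjusted p belonged to Psma6 (-0.66), Psmb7, Psmb3 (-0.36) and Psma2 (-0.35), structural and catalytic parts of the core. In Chd7f/f KI against KI, 1 of the 14 fell, Psma7 (-0.15, limma adjusted p = 0.025), and none rose. Of all tested genes, 22.9% were lower and 17.5% higher in that comparison. The Psma7 call was lost under column-total scaling, also when late neutrophil genes were left out of the total, with upper-quartile factors and with quantile normalisation. Upper-quartile factors and quantile normalisation each gave 3 higher genes and none lower.

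A ratio noticed after the values were seen was that of the 2 heavy chains, which is given without a test. H2-K1 to H2-D1 was 0.847, 0.849 and 0.88 in Chd7f/f KI, 0.672, 0.763 and 0.698 in KI, and 0.606, 0.596 and 0.567 in WT. The 3 groups did not overlap, with Chd7f/f KI highest and WT lowest. How the counting divides reads between these close relatives bears on the ratio and was not tested.

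**Figure D4:**
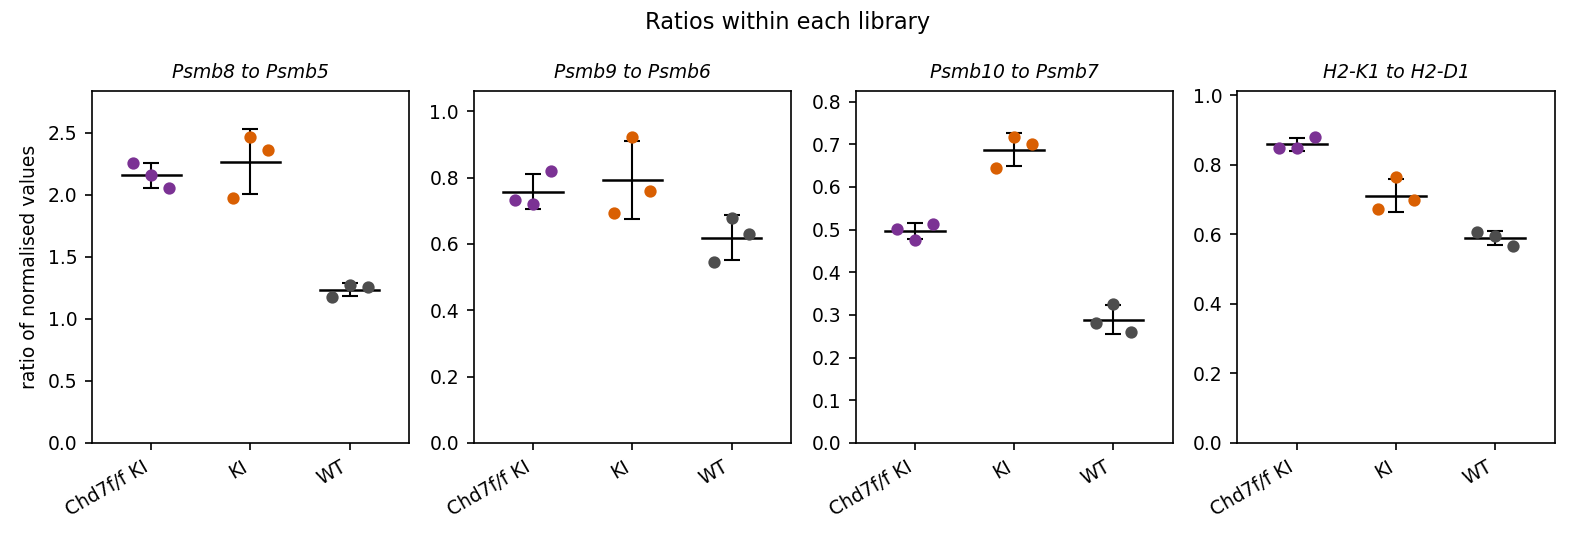
Ratio of normalised values within each library for the 3 pairs of immunoproteasome and constitutive subunits and for the 2 heavy chains, on axes that start at 0. Points are libraries of Chd7f/f KI, KI and WT, lines are means and bars SD (n = 3). Psmb10 to Psmb7 falls into 3 separate levels, about 0.5, 0.7 and 0.3, and Psmb8 to Psmb5 is above 1.9 in all libraries with the fusion allele and under 1.3 in WT.

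Other genes of the route, and relatives of its heavy chains, were taken from lists chosen with earlier results of these data known. Of all tested genes, 31.8% were called higher and 27.2% lower in KI against WT. These shares were 17.5% and 22.9% in Chd7f/f KI against KI, and 24% and 24.3% in Chd7f/f KI against WT. Among class I and class I-like heavy chain genes outside the 10, 15 of 21 passed the filter. In KI against WT 11 of these 15 were higher and 1 lower. H2-M3, which presents formylated bacterial peptides, had 1045, 1223 and 1091 in KI, against 329, 379 and 379 in WT (log2 1.62, SE 0.10, limma adjusted p = 1.59e-06). Mr1, which presents vitamin B metabolites, and H2-T23, which presents leader peptides of other class I chains, rose by 1.47 and 1.03. Hfe, an iron regulator with a class I fold, rose by 1.78, and the 1 gene that fell was H2-Q10, a secreted chain (-1.79).

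Of the 15, 5 fell in Chd7f/f KI against KI and none rose (22.9% and 17.5% of all tested genes). Hfe had 631, 790 and 728 in Chd7f/f KI, against 3458, 2111 and 2793 in KI (log2 -1.94, SE 0.17, limma adjusted p = 9.02e-05). Fcgrt, the heavy chain of the neonatal Fc receptor, fell by 1.85, H2-M3 by 0.49, Mr1 by 0.47 and H2-T23 by 0.44. Of the 12 monocyte and macrophage markers 10 fell and 1 rose in the same comparison, and the part of those cells in these falls was not tested. Against WT, 8 of the 15 were higher in Chd7f/f KI and none lower, with the smallest adjusted p for H2-M3 (1.14), Cd1d1, a lipid-presenting molecule (1.19), Mr1 (1.00) and H2-T23 (0.59). The largest of the 8 changes was that of Cd1d2, a close copy of Cd1d1, which had 264, 30 and 33 in Chd7f/f KI and 11, 5 and 4 in WT. The Q and T region genes H2-Q4, H2-Q6, H2-Q7, H2-T10 and H2-T22 are close copies, and the division of reads among them is uncertain.

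Of 9 chaperone, peptide loading and translocon genes of the endoplasmic reticulum, 2 were higher in KI than in WT and 1 lower. Over all tested genes, 31.8% were higher and 27.2% lower. The higher ones were Erap1, the aminopeptidase that trims peptides for class I (0.43, limma adjusted p = 0.00215), and Tapbpl, a tapasin relative that edits peptides (0.28, adjusted p = 0.0392). Sec61g, a translocon subunit, fell (-0.26), a call lost when scaled to the column total (-0.03, adjusted p = 0.773). In Chd7f/f KI against KI, Tapbpl fell (-0.32, adjusted p = 0.0306; a call lost under 3 other scalings, with adjusted p = 0.0628 to 0.0726) and Hspa5, a general chaperone, rose (0.42, adjusted p = 0.0229). Calr, Canx and Pdia3, chaperones of the loading complex, did not pass in any of the 3 comparisons, with differences between -0.12 and 0.20. Scaled to the column total, Canx and Pdia3 passed on the high side in KI (0.26 and 0.27) and in Chd7f/f KI (0.37 and 0.41) against WT. The list then had 5 higher and 0 lower in KI against WT, and 6 higher and 0 lower in Chd7f/f KI against WT (2 and 0 as reported).

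Of 12 cytosolic peptidase and proteasome activator genes, 5 were higher and 2 lower in KI than in WT (31.8% and 27.2% of all tested genes). Scaled to the column total, 9 were higher and 1 lower. Lnpep, an endosomal aminopeptidase used in cross-presentation, rose by 1.08 and Npepps, a cytosolic aminopeptidase, fell by 1.08. Psme1, a subunit of the interferon-inducible activator PA28, rose by 0.29 (limma adjusted p = 0.000873), and its partner Psme2 differed by 0.18 without passing (adjusted p = 0.0697). In Chd7f/f KI against KI, 17.5% of all tested genes were higher and 22.9% lower. Of the 12 genes, 1 was higher in that comparison, Npepps (0.28). There 4 were lower, among them Lnpep (-0.45) and Psme4, another proteasome activator (-0.36). With upper-quartile factors, quantile normalisation or the total without late neutrophil genes, 2 were higher and 2 lower.

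Among 26 regulators, 13 were higher and 8 lower in KI than in WT (31.8% and 27.2% of all tested genes). In Chd7f/f KI against KI, 2 were higher and 12 lower (17.5% and 22.9% of all tested genes). In KI against WT these counts were 16 and 1 when scaled to the column total, and 14 and 5 without the late neutrophil genes in the total. Irf1, a transcription factor of the interferon gamma response, had 2571, 2046 and 2800 in Chd7f/f KI, 3214, 5284 and 3759 in KI, and 1994, 2897 and 2445 in WT. KI was thus above both other groups for Irf1, by 0.73 against WT (SE 0.20, limma adjusted p = 0.0116), and Chd7f/f KI was lower than KI by a log2 difference of -0.71 (adjusted p = 0.0211). Rfx5, which binds the X box with NLRC5, had 856, 875 and 1009 in Chd7f/f KI, 858, 919 and 879 in KI, and 590, 625 and 560 in WT. Both fusion groups were above WT for Rfx5, by 0.62 and 0.58 (adjusted p = 0.000281 and 0.000222), and overlapped each other.

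Ifngr1, a chain of the interferon gamma receptor, differed by 0.08 in KI against WT and fell by 0.53 in Chd7f/f KI against KI (adjusted p = 0.000436). Ciita, the class II counterpart of Nlrc5, had 587, 923 and 916 in Chd7f/f KI, 4213, 3239 and 3528 in KI, and 198, 263 and 257 in WT. Ciita fell by 2.20 in Chd7f/f KI against KI (adjusted p = 7.9e-05), beside the difference of -0.49 for Nlrc5 that did not pass. Ciita is itself in the dendritic cell and class II marker list, most of which was higher in KI than in WT, as given above. That list is therefore not separate from Ciita.

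**Figure D5:**
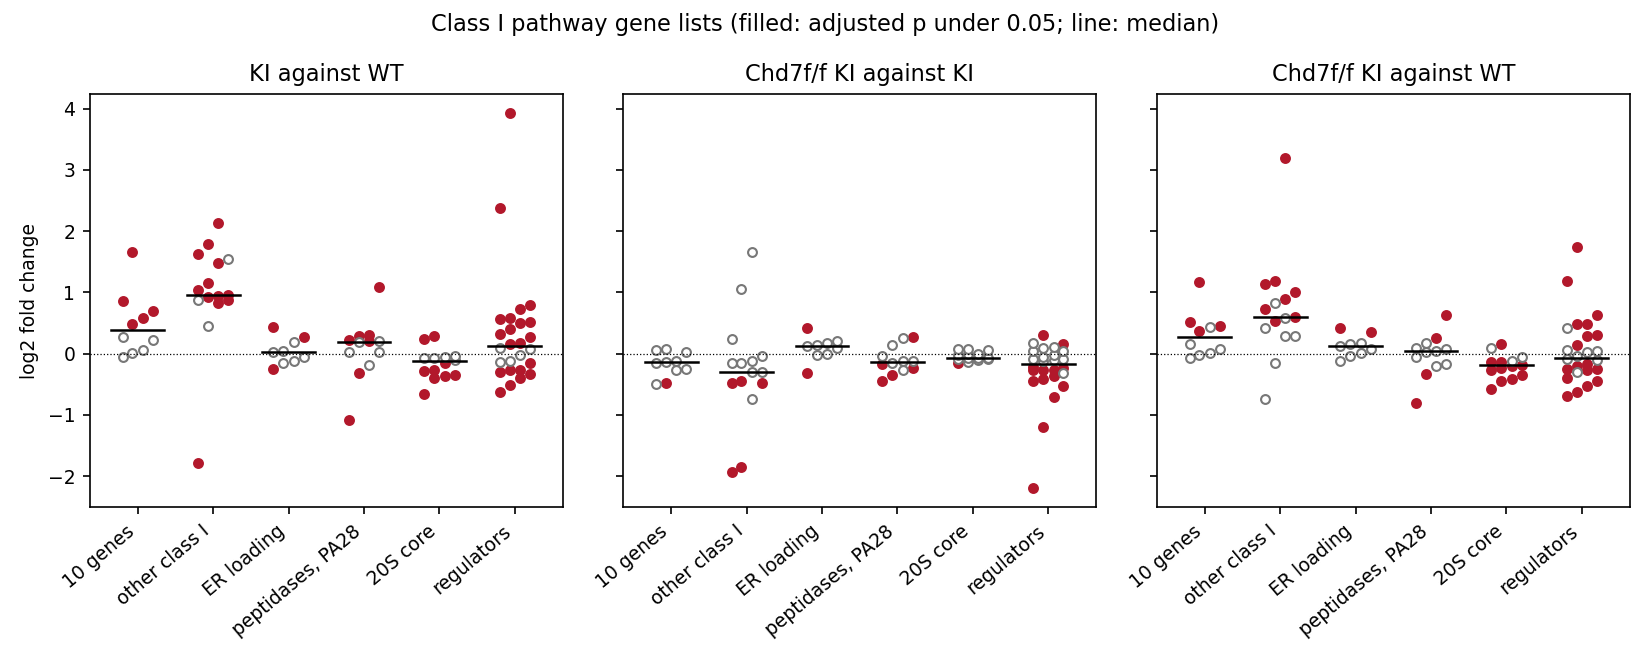
Log2 fold change of each tested gene of the 10 and of 5 pathway lists, for KI against WT, Chd7f/f KI against KI, and Chd7f/f KI against WT. Filled red points passed an adjusted p of 0.05 in limma and lines are medians. The other class I genes have medians of 0.96, -0.29 and 0.59 and the 20S core genes of -0.13, -0.07 and -0.19 in these comparisons. Scaled to the column total, the 20S medians were 0.10, -0.05 and 0.05.

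The genes nearest in pattern to the 10 were found by the root-mean-square distance between centred log2 profiles over the 9 libraries, among 10585 genes with a mean of at least 100. Among the nearest were Tmem243 (distance 0.087 log2 units), Pcnx3 (0.0927), Nktr (0.0939) and Sec16a (0.0943). Of the 10 themselves, Psmb8 was nearest to the mean profile (0.0948) and Nlrc5 farthest (0.524).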

How the data were processed

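The deposited table gives 1 whole number per gene and library. These are scores that the authors appear to have made by dividing reads per gene by a library's size factor and rounding, as read from gaps and doublings among the low values. The submitters' processing notes name STAR 2.4, RSEM, CASAVA 1.8.2, DESeq2 and GRCm38 with no roles, and the annotation release is not given in the sources used here. Because raw counts are not in the table, no count test was run, and reads per library before scaling are unknown. Symbols, coordinates and exon lengths came from GENCODE M21, with a symbol for 42462 of 43629 identifiers. No 2 columns were identical.

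All 9 libraries in 3 groups entered 1 limma 3.58.1 fit (trend = TRUE) on log2(value + 1), for genes at 10 or more in at least 3 libraries, 2-sided, with Benjamini-Hochberg adjustment at 0.05. The fit was tested on simulated data with 97 to 100 changed genes per fold, fewer than were called in the real data. It recovered 41.2% to 49% of 1.5-fold changes and 60.8% to 71% of 2-fold changes, depending on the comparison. Changes of these sizes can thus fail to pass. Subunit ratios used exact permutation tests. The genes and lists were chosen with earlier results of these data known. Named are the 10 genes, up to 4 genes per list with the smallest adjusted p, the allele genes, Psmb5, Psmb6, Psmb7, Irf1, Rfx5 and the nearest profiles. Some items that this rule names are not reported here. Genes named outside this rule (Calr, Canx, Pdia3, Psme2 and Cd1d2, and Mr1 in Chd7f/f KI against KI) were named after their values were seen, as were the motif letters, the ratio of heavy chains and the places of libraries within groups. Scaling to the column total without late neutrophil genes was added after seeing the data. Software was R 4.3.3, Python 3.11.15, numpy 2.4.6, pandas 2.3.3 and matplotlib 3.10.9.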

Additional observations from a re-analysis of the deposited data

How the results depend on the processing

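Each fit was repeated with other pseudocounts, filters, scalings, variance models, tests and with each library left out. Of 660 single-gene values, 623 kept their direction and side of the threshold, 22 passed newly, 15 no longer passed, and no called value changed sign. Scaled to the column total, the median of all genes was 0.25 in KI against WT and 0.26 in Chd7f/f KI against WT (0.02 in both as reported). With that scaling 8 of the 10 genes were higher in KI against WT and 7 in Chd7f/f KI against WT. Of all 15997 tested genes, 7197 and 7004 were then called higher (5084 and 3842 as reported). The share of higher calls among all calls went to 74.2% (53.9% as reported) and 78.7% (49.7%). Without the late neutrophil genes in the total these shares were 60.3% and 66.2%. In Chd7f/f KI against KI the share was 43.4% as reported, 57.4% under upper-quartile factors, 57% under quantile normalisation and 53.3% without the late neutrophil genes in the total.

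Tested against a 1.5-fold change, 2 genes were higher in KI against WT (Nlrc5 and Psmb10), 0 in Chd7f/f KI against WT, and 0 were lower in Chd7f/f KI against KI. By construction this test asks for larger changes, and it called 3239, 1700 and 865 of all genes in the same order. With 1 library left out, the genes called higher numbered 4 to 6 in KI against WT and 3 to 5 in Chd7f/f KI against WT, and 1 was lower in Chd7f/f KI against KI. The replicate numbers did not pair the samples (same-number correlations of deviations from -0.15 to 0.11, and 4 of 18 pairings best with the own number). With a replicate block, 3 genes were lower in Chd7f/f KI against KI (Psmb10, Nlrc5 and Tap1), and the cause was not tested. All 81 alternatives for the subunit ratios moved the value by less than the pooled SD of the 2 groups. Among them, without KI library 2 the Chd7f/f KI minus KI difference of Psmb9 to Psmb6 was 0.06 (-0.06 as reported). Without KI library 1 that of Psmb8 to Psmb5 was -0.16 (-0.07 as reported).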

Other observations

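Ligands and other molecules that meet T and NK cells beside class I were also measured. Of 12 checkpoint and costimulatory genes, not all of them ligands, 8 were higher and 1 lower in KI than in WT (31.8% and 27.2% of all tested genes). In Chd7f/f KI against KI, 8 were lower and none higher (22.9% and 17.5% of all tested genes). Cd274, the gene of PD-L1, had 415, 457 and 512 in Chd7f/f KI, 1208, 1050 and 1557 in KI, and 260, 290 and 366 in WT. It was higher by 2.05 in KI than in WT (limma adjusted p = 9.5e-06) and fell by 1.45 in Chd7f/f KI against KI (adjusted p = 0.000331). Havcr2, which encodes the receptor TIM-3, had 162, 180 and 142 in Chd7f/f KI, 1203, 735 and 1263 in KI, and 58, 77 and 89 in WT. Cd276, the gene of B7-H3, had 399, 309 and 201 in Chd7f/f KI, 980, 718 and 1098 in KI, and 13, 12 and 13 in WT. These genes are also expressed by monocytes and dendritic cells. Of 12 monocyte and macrophage markers, 10 were higher and 2 lower in KI than in WT, and 10 were lower and 1 higher in Chd7f/f KI against KI. For the 10 dendritic cell and class II markers these counts were 8 higher and 0 lower, and 5 lower and 2 higher. The part of those cells was not tested.

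Of 9 ligand genes of the NK cell receptor NKG2D, 5 were found in the table and 4 passed the filter. H60b had 44, 43 and 61 in Chd7f/f KI, 5, 15 and 4 in KI, and 6, 7 and 6 in WT, and was higher by 2.67 in Chd7f/f KI against KI (limma adjusted p = 0.00146). Raet1d had 16, 30 and 41 in Chd7f/f KI, 14, 15 and 17 in KI, and 3, 7 and 2 in WT. Values this low are limited by counting. Ulbp1 had 402 to 480 in Chd7f/f KI, 443 to 552 in KI and 439 to 484 in WT, and passed in none of the 3 comparisons.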
